A study of Mus musculus with 10 samples.

Results

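The proteasome subunits and their assembly factors were followed in mouse livers with active NRF2. Members were every gene identifier in the deposited table whose GRCm38 symbol was Psma, Psmb, Psmc, Psmd, Psme, Psmf or Psmg followed by a number, together with Pomp. The interferon-inducible subunits Psmb8, Psmb9 and Psmb10 were left out of the set. This gave 46 genes of 18869 identifiers, of which 18799 had a symbol. They comprised 8 genes of the 20S alpha ring, 8 of the 20S beta ring, 6 ATPases of the 19S base, 3 other base subunits, 8 lid subunits, 5 activators and inhibitors and 8 assembly factors.

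The proteasome degrades proteins that carry ubiquitin chains. Its barrel-shaped 20S core holds the catalytic beta subunits between outer rings of alpha subunits, and its 19S cap recognises ubiquitin, removes it and unfolds the substrate with a ring of ATPases. Subunit genes are known to be induced together by NRF1, a relative of NRF2 encoded by Nfe2l1, when proteasome activity is limiting, and NRF2 itself has been described as an inducer of some subunit genes, Psmb5 among them.

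The Nrf2Act-hep group held 5 liver libraries from C57BL/6 mice labelled as having NRF2 activated specifically in the liver. The WT group held 5 liver libraries from wild-type C57BL/6 mice. All mice were 6 weeks old, ate regular chow and were fasted for 15 h before the livers were frozen. The labels do not say by which allele, promoter or agent NRF2 was activated. A letter in the sample titles, M or F, marked Nrf2Act-hep replicates 6 to 8 and WT replicates 1 and 2 as M, and Nrf2Act-hep replicates 9 and 10 and WT replicates 3 to 5 as F. Separate mice per library are not stated, and the p-values therefore cover only library-to-library spread, part of which may be technical.

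Each library counted short tags near the 3′ ends of polyadenylated transcripts, so a level in CPM, reads scaled to a common total per library, needs no correction for transcript length. Recovered depth was 2167528 to 2806670 reads per Nrf2Act-hep library and 1267745 to 2287727 per WT library. Levels are given as CPM after TMM scaling, which corrects for differences in library composition. Fold changes are differences of log2(CPM + 1) between Nrf2Act-hep and WT ± SE from limma with the M or F letter as a covariate, with Benjamini-Hochberg adjustment over the 8075 genes that passed the filter on low values and a threshold of 0.05. The summed level of 10 hepatocyte markers was 34087.5 to 42542.2 CPM in Nrf2Act-hep and 44361.8 to 53143.5 CPM in WT, and no marker of the list was at 0 in all libraries. The highest sum from any list of other liver cells was 543 CPM, for stellate cells in WT. Hepatocyte transcripts were thus abundant in the libraries, and no other tissue was compared. Known NRF2 target genes were read against the labels. Of 11 tested targets, 9 were higher and 0 lower in Nrf2Act-hep, with limma and with edgeR's quasi-likelihood test. The antioxidant enzyme gene Nqo1 stood at 36.9 ± 13.3 CPM in Nrf2Act-hep and 3.35 ± 1.62 CPM in WT (SD, n = 5 each), and Gclc, which encodes the catalytic subunit of glutamate-cysteine ligase in glutathione synthesis, at 548 ± 148 CPM in Nrf2Act-hep and 142 ± 59.4 CPM in WT.

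No proteasome gene passed the threshold between Nrf2Act-hep and WT livers. Of the 43 members tested, limma called 0 higher and 0 lower, against a background of 2.79% of all tested genes called higher and 1.86% called lower, or 4.64% in either direction. The edgeR quasi-likelihood test, DESeq2 and limma-voom also called 0 members. At an unadjusted p under 0.05 limma counted 7 members, 6 of them higher and 1 lower, which is 16.3% of the members against 16.2% of all genes, and edgeR counted 6. The smallest adjusted p of any member was 0.079 in limma and 0.11 in edgeR, both for the assembly chaperone gene Psmd9.

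The summed level of all 46 genes was 3727, 3799, 4018, 3578 and 3762 CPM in Nrf2Act-hep replicates 6 to 10, against 3462, 3943, 3702, 4153 and 3709 CPM in WT replicates 1 to 5. The means were 3777 ± 159 CPM in Nrf2Act-hep and 3793 ± 263 CPM in WT (SD, n = 5 each), and the Nrf2Act-hep values lay inside the WT range. The median log2 fold change of the tested members was -0.0035, beside 0.0051 over all genes, and 20 members lay above 0 and 23 below. Fold changes of the members spread with an SD of 0.20 on the log2 scale, against 0.39 over all genes, and ran from -0.30 to 0.53. On the log2(CPM + 1) scale the 95% interval stayed within 1.5-fold in either direction for 33 of the 43 members and within 2-fold for all 43. That scale understates changes of low genes, so for members at low levels these are not limits on the fold change in CPM. The interval of Psmd5 ran from 0.080 to 0.97 in limma. Its log2 fold change was 0.53 in limma and 0.61 in edgeR.

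**Figure D1:**
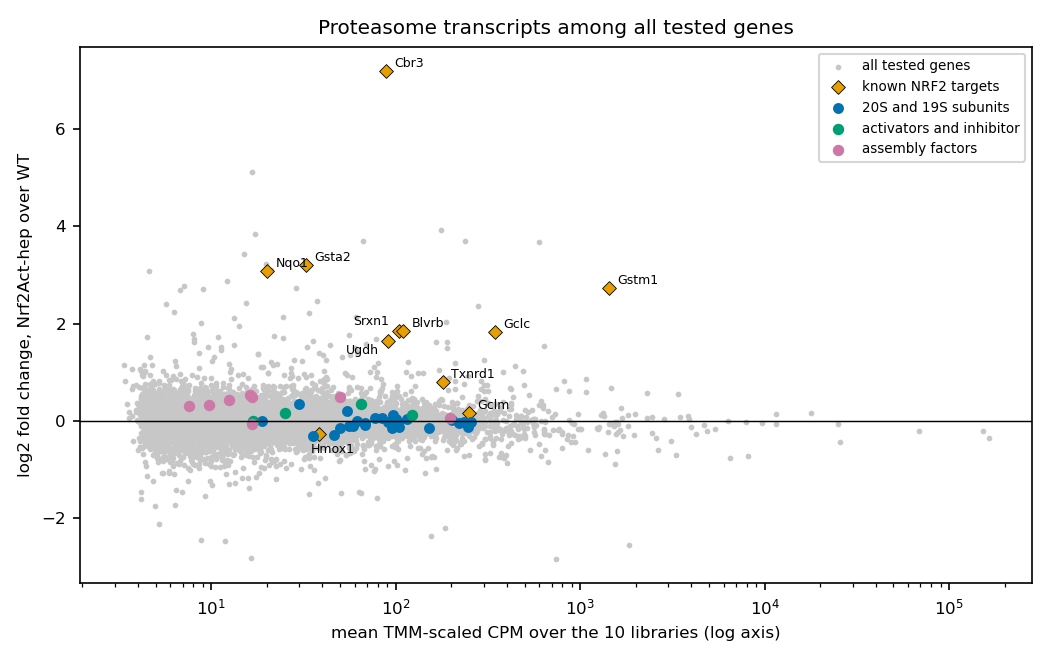
Each dot is 1 of the 8075 tested genes, with mean TMM-scaled CPM over the 10 libraries on a log axis and the log2 fold change of Nrf2Act-hep over WT on the vertical axis. Proteasome genes (coloured circles) lie between -0.30 and 0.53, near the line at 0, while 9 of 11 tested NRF2 targets (diamonds) were called higher.

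The scaling matters for the sign of such small values. On the deposited CPM scale without TMM the median log2 fold change of all genes was 0.13, and the median of the members was also 0.13. TMM gives each library 1 factor, which shifts the fold changes of all genes by about the same amount, and 18 of 43 members changed sign with that shift. The factors were 1.01 to 1.08 in Nrf2Act-hep and 0.90 to 0.999 in WT, so the scaling moved with genotype. The ratio of mean summed levels of all members, Nrf2Act-hep over WT, was 0.996 with TMM and 1.09 as deposited. Which scale describes these livers better was not tested.

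Promoter sequence was examined because NRF2 with a small Maf partner binds the antioxidant response element, whose core was searched as TGACNNNGC on both strands. The RefSeq promoter table, on GRCm38.p6, covers 250 bases before to 50 bases after each transcription start and held 38 of the 46 members. The core was present in 6 of these, or 15.8%, against 14.0% of all 27025 genes in the table. The members with a core were Psmd9, Psmb5, Psme4, Psmb6, Psmd12 and Psmc6. The CCAAT letters, also searched on both strands, were in 13 members, or 34.2%, against 41.1% of all genes. The 4 members with a core and the smallest adjusted p are shown, in lower case from 5′ to 3′ on the strand of the gene, with the matched core in capitals.
Psmd9: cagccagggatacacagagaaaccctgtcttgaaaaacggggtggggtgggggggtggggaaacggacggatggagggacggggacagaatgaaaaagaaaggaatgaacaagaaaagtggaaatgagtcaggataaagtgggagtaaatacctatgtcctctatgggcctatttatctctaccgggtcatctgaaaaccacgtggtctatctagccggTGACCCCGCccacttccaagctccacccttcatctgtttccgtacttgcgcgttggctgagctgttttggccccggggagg
Psmb5: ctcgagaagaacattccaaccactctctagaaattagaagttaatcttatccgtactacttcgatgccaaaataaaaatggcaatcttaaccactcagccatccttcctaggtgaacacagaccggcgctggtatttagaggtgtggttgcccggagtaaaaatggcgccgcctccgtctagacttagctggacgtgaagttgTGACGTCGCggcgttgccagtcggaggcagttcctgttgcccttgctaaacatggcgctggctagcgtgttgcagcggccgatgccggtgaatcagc
Psme4: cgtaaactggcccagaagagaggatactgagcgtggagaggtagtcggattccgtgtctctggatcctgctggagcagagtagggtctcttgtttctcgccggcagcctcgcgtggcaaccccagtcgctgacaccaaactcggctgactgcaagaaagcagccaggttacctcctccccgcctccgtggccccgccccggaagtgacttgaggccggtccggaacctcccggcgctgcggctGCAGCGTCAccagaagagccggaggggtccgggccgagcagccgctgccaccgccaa
Psmb6: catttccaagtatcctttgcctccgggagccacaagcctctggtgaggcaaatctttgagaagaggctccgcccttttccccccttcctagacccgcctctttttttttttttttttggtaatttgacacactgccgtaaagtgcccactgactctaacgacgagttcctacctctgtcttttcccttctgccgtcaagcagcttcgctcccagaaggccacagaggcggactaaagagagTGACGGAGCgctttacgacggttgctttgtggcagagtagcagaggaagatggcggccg
The Psmd9 sequence lies at chr5:123227940-123228239 on the plus strand, and its core TGACCCCGC begins 31 bases before the start. The Psmb5 sequence lies at chr14:54617946-54618245 on the minus strand, with TGACGTCGC 47 bases before the start. Psme4, at chr11:30771525-30771824 on the plus strand, holds the core on the opposite strand, written here as GCAGCGTCA, 7 bases before the start. Psmb6, at chr11:70525107-70525406 on the plus strand, holds TGACGGAGC 9 bases before the start. A match is a description of letters, not a measured binding site. Of the 6 tested members with the core, 3 had a log2 fold change above 0 and their median was 0.052, while 15 of the 30 tested members without it lay above 0, with a median of 0.0028.

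**Figure D2:**
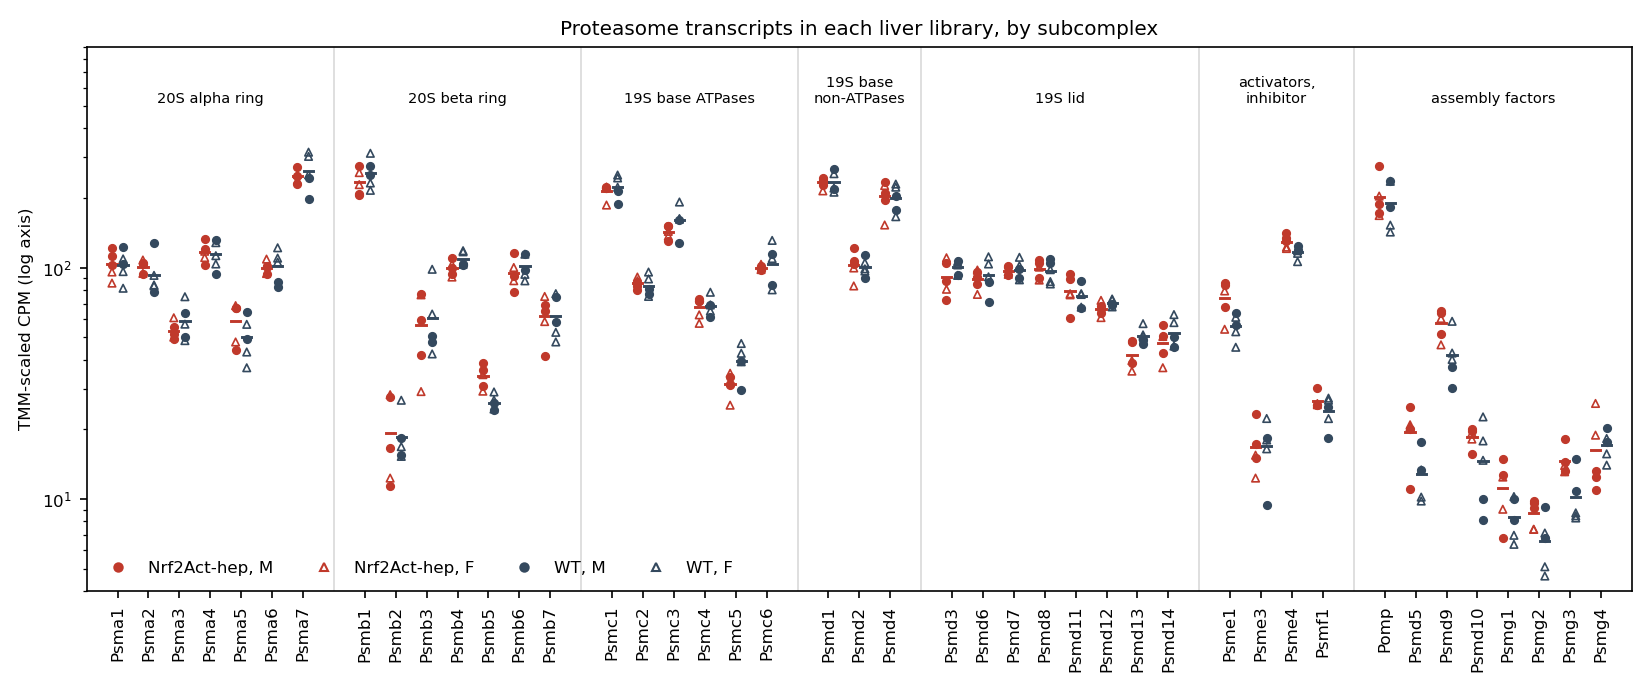
TMM-scaled CPM on a log axis for the 43 tested members, grouped by subcomplex, with Nrf2Act-hep to the left of WT for each gene. Filled circles are M libraries, open triangles F libraries and short bars group means, and the groups overlap for every gene except Psmb5.

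Levels of the tested members spanned 7.62 to 256 CPM as means over the 10 libraries, a ratio of 33.6 between Psma7 and Psmg2, with a median of 77.4 CPM. The coefficient of variation over the 10 libraries had a median of 14.1% and ran from 5.73% for the lid subunit gene Psmd12 to 35.2% for the beta subunit gene Psmb3. The other 3 members did not pass the filter on low values. Psma8, known as an alpha subunit of testis, had 6 reads in the Nrf2Act-hep libraries together and 4 in the WT libraries. Psmb11, known as a beta subunit of the thymus, had 0 reads in Nrf2Act-hep and 1 read in WT. Psme2, the partner of Psme1 in the PA28 activator, had 42 reads in Nrf2Act-hep, or 3.24 ± 1.78 CPM, and 36 reads in WT, or 4.55 ± 1.79 CPM (SD, n = 5 each), and shares sequence with a near copy, Psme2b, which had 8 reads in all.

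The alpha ring closes the core and gates the entry of substrates. Its 8 genes summed to 783.4 ± 31.5 CPM in Nrf2Act-hep and 783.7 ± 92.5 CPM in WT (SD, n = 5 each). None of the 7 tested genes was called, none had an unadjusted p under 0.05 in limma or edgeR, and the median log2 fold change was 0.035. All 7 intervals stayed within 1.5-fold. Psma7, which encodes the alpha4 subunit and had the highest level of all members, measured 248, 230.4, 273, 253 and 239 CPM in Nrf2Act-hep replicates 6 to 10, against 197, 244, 252, 316 and 303 CPM in WT replicates 1 to 5. The Nrf2Act-hep libraries sat within the wider WT range, and the log2 fold change was -0.023 ± 0.13 (limma, adjusted p = 0.96). Psma5, which encodes alpha5, had the largest difference in the ring. Its levels were 44.3, 66.7, 67.0, 47.7 and 68.5 CPM in Nrf2Act-hep, against 49.3, 64.4, 36.9, 56.9 and 43.2 CPM in WT. Both groups spread over a similar range and overlapped, and the log2 fold change of 0.19 ± 0.16 did not pass (limma, adjusted p = 0.61).

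The beta ring carries the 3 kinds of proteolytic activity. Its sums were 601.6 ± 45.0 CPM in Nrf2Act-hep and 635.6 ± 41.8 CPM in WT (SD, n = 5 each), and limma called 0 of 7 tested genes. The log2 fold change was below 0 for 5 of 7 with a median of -0.10, and above 0 for all 7 on the deposited scale. One gene, Psmb5, had an unadjusted p under 0.05 in limma and in edgeR. Psmb5, which encodes the subunit with chymotrypsin-like activity, was the only member whose libraries did not overlap between groups, which is 2.33% of the members against 5.14% of all genes. Its levels were 30.6, 36.2, 38.7, 29.3 and 34.5 CPM in Nrf2Act-hep, against 24.3, 25.9, 26.7, 29.0 and 24.5 CPM in WT. The lowest Nrf2Act-hep library, replicate 9, stood just above the highest WT library, replicate 4. The log2 fold change was 0.35 ± 0.14, with a 95% interval of 0.058 to 0.65 and an adjusted p of 0.20 in limma and 0.22 in edgeR, so the gene was not called.

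The other catalytic subunit genes lay closer to 0. Psmb6, which encodes the caspase-like subunit, measured 78.8, 91.7, 116, 100.2 and 87.8 CPM in Nrf2Act-hep, against 97.3, 115, 93.6, 114 and 87.7 CPM in WT. Its groups overlapped throughout (log2 fold change -0.11 ± 0.13, limma, adjusted p = 0.73). Psmb7, which encodes the trypsin-like subunit, stood at 61.9 ± 12.8 CPM in Nrf2Act-hep and 62.0 ± 13.2 CPM in WT (SD, n = 5 each). Whether Psmb5 differed from Psmb6 or Psmb7 in its response was not tested. The non-catalytic subunit gene Psmb1 had the highest level in the ring, with 206, 207, 277, 229 and 258 CPM in Nrf2Act-hep, against 252, 275, 232, 312 and 216 CPM in WT. Its groups overlapped and its log2 fold change was -0.13 ± 0.13 (limma, adjusted p = 0.69).

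Psmb2 and Psmb3, both genes of non-catalytic subunits, had the largest coefficients of variation over the 10 libraries among the 43 tested members. Psmb2 measured 16.6, 27.7, 11.4, 28.2 and 12.3 CPM in Nrf2Act-hep, against 15.5, 18.4, 15.3, 16.8 and 26.7 CPM in WT, a coefficient of variation of 33.5% where counting alone gives 17.5%. Psmb3 measured 76.6, 59.5, 41.9, 76.3 and 29.1 CPM in Nrf2Act-hep, against 50.7, 47.7, 63.0, 42.4 and 98.4 CPM in WT, a coefficient of variation of 35.2% against 10.04% from counting. Replicates 8 and 10 of Nrf2Act-hep were lowest and WT replicate 5 was highest among WT for both genes, and the 95% interval of Psmb3, from -0.85 to 0.64, was the widest of the tested members.

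The base of the 19S cap unfolds substrates and feeds them into the core. Its 6 ATPase genes summed to 642.0 ± 19.3 CPM in Nrf2Act-hep and 681.7 ± 63.2 CPM in WT, and its 3 other genes to 540.8 ± 52.1 CPM in Nrf2Act-hep and 536.1 ± 48.9 CPM in WT (SD, n = 5 each). In limma 0 of the 6 ATPase genes and 0 of the 3 others were called, and none had an unadjusted p under 0.05 in limma or edgeR. The median log2 fold change was -0.041 for the ATPases and -0.0035 for the others. Psmc1, the ATPase gene with the highest level, measured 220.1, 221, 223, 187 and 223 CPM in Nrf2Act-hep, against 189, 214, 252, 244 and 223 CPM in WT. Among the Nrf2Act-hep libraries 4 lay between 220.1 and 223.3 CPM and replicate 9 below them. The log2 fold change was -0.045 ± 0.12 (limma, adjusted p = 0.90). Psmc5 had the largest difference among the ATPases. It measured 31.5, 33.8, 31.0, 35.0 and 25.4 CPM in Nrf2Act-hep, against 29.7, 39.3, 42.7, 47.0 and 39.2 CPM in WT. WT replicate 1 was the only WT library among the Nrf2Act-hep values, and the log2 fold change was -0.30 ± 0.15 (limma, adjusted p = 0.33).

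Psmd1, which encodes a scaffold subunit of the base, was high and even across libraries, with 229, 244, 240.1, 215 and 240.1 CPM in Nrf2Act-hep, against 219.6, 268, 212, 255 and 221 CPM in WT. The groups overlapped and the log2 fold change was -0.019 ± 0.11 (limma, adjusted p = 0.96). Psmd4, which encodes a ubiquitin receptor of the cap, stood at 204 ± 32.1 CPM in Nrf2Act-hep and 200.2 ± 27.9 CPM in WT, and Psmd2, the gene of another base scaffold, at 103 ± 14.0 CPM in Nrf2Act-hep and 101 ± 8.54 CPM in WT (SD, n = 5 each).

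The lid removes ubiquitin chains through the metalloprotease encoded by Psmd14. Lid genes summed to 610.9 ± 24.9 CPM in Nrf2Act-hep and 636.8 ± 27.1 CPM in WT (SD, n = 5 each), and the log2 fold change was below 0 for 7 of 8 with TMM, where the median was -0.048, and above 0 for 5 of 8 on the deposited scale. None of the 8 was called in limma, and 1, Psmd13, had an unadjusted p under 0.05 in limma and in edgeR. Psmd13 measured 47.7, 38.6, 48.3, 39.7 and 35.7 CPM in Nrf2Act-hep, against 46.6, 48.5, 57.3, 50.5 and 51.2 CPM in WT. Nrf2Act-hep replicates 6 and 8 lay among the WT values and the other 3 below all of them, and the log2 fold change was -0.29 ± 0.13 (limma, adjusted p = 0.29). Psmd7, which encodes the inactive partner of the metalloprotease and had the highest level in the lid, measured 102, 101, 93.0, 96.2 and 93.6 CPM in Nrf2Act-hep, against 90.5, 98.8, 102, 111 and 88.6 CPM in WT. It overlapped fully (log2 fold change -0.0092 ± 0.11, limma, adjusted p = 0.98). Psmd14 itself stood at 47.4 ± 7.60 CPM in Nrf2Act-hep and 52.4 ± 7.67 CPM in WT (SD, n = 5 each).

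**Figure D3:**
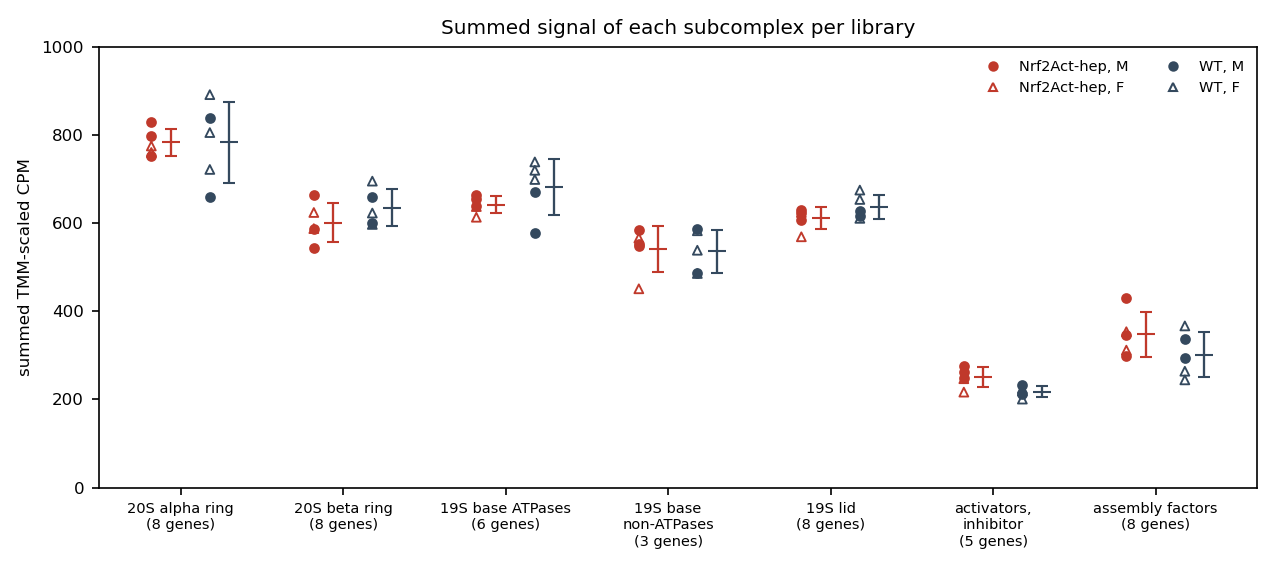
Summed TMM-scaled CPM of each subcomplex in each library, from 0, with Nrf2Act-hep to the left of WT. Filled circles are M and open triangles F libraries, bars are means ± SD (n = 5 each), and in the activator and inhibitor group 4 of 5 Nrf2Act-hep libraries lie above the highest WT library.

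Of the 31 tested structural subunits of the 20S and 19S particles that the naming rule picks, 9 had a log2 fold change above 0 and 22 below. Their median was -0.023 and their range -0.30 to 0.35. Their intervals stayed within 1.5-fold for 28 of 31. On the deposited scale 26 of the 31 lay above 0 with a median of 0.11, against 0.13 for all genes.

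The activators open the core without the 19S cap, and Psmf1 encodes a protein known as an inhibitor of the core. These 5 genes summed to 277, 249.7, 262, 247 and 217 CPM in Nrf2Act-hep, against 213, 232, 225, 201 and 219 CPM in WT. The mean was 250.4 ± 22.3 CPM in Nrf2Act-hep and 217.9 ± 11.8 CPM in WT (SD, n = 5 each), with Nrf2Act-hep replicate 10 inside the WT range. In limma 0 of 4 tested genes were called, 1 had an unadjusted p under 0.05 in limma and in edgeR, all 4 log2 fold changes were above 0, and their median was 0.15.

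Psme1, which encodes the alpha subunit of the PA28 activator, measured 85.6, 67.9, 83.8, 79.4 and 54.2 CPM in Nrf2Act-hep, against 56.8, 63.6, 52.9, 45.3 and 61.0 CPM in WT. All Nrf2Act-hep libraries but replicate 10 stood above the highest WT library. The log2 fold change was 0.35 ± 0.14, with an adjusted p of 0.18 in limma and 0.17 in edgeR, and it passed on the deposited scale without TMM (log2 fold change 0.48, limma, adjusted p = 0.046). Over the other settings the adjusted p of Psme1 reached 0.67, in F libraries alone. Emc9 lies on the opposite strand at the 3′ end of Psme1, with 8.41 ± 2.82 CPM in Nrf2Act-hep and 5.86 ± 1.44 CPM in WT (SD, n = 5 each). Whether the authors' counting used strand is not given in the sources used here, so reads of the pair may not be fully separated.

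Psme4, which encodes the nuclear activator PA200, had the highest level of the group, with 141, 129.9, 134, 121 and 123 CPM in Nrf2Act-hep, against 119, 124, 118, 106 and 115 CPM in WT. Its 5 Nrf2Act-hep libraries lay above the WT median and 3 lay above the highest WT library (log2 fold change 0.13 ± 0.11, limma, adjusted p = 0.61). Psme3, the gene of the PA28 gamma activator, stood at 16.7 ± 4.15 CPM in Nrf2Act-hep and 16.9 ± 4.69 CPM in WT, and Psmf1 at 26.5 ± 2.03 CPM in Nrf2Act-hep and 23.9 ± 3.66 CPM in WT (SD, n = 5 each).

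Assembly factors bind intermediates of the core and the base and are not part of the finished particle. They held 4 of the 7 members with an unadjusted p under 0.05 in limma, all 4 higher in Nrf2Act-hep, where 16.2% of all genes had such a p in either direction. Of the 8, 7 had a log2 fold change above 0, and their median was 0.38, against 0.0051 over all genes. After adjustment limma called 0 of 8, and edgeR called 0 with 3 at an unadjusted p under 0.05. On the deposited scale all 8 lay above 0 with a median of 0.50, against 0.13 over all genes. Their reads summed over the 10 libraries had a median of 349, against 1999 for the structural subunits, but ran from 160 for Psmg2 to 4001 for Pomp. The intervals of 2 of 8 stayed within 1.5-fold. The difference between assembly factors and structural subunits was not tested.

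Psmd9, Psmd10 and Psmd5 encode the chaperones that escort the ATPases of the base. Psmd9 measured 51.5, 65.1, 63.8, 46.4 and 60.3 CPM in Nrf2Act-hep, against 37.2, 30.1, 40.1, 58.6 and 42.8 CPM in WT. WT replicate 4 was the only WT library within the range of the Nrf2Act-hep libraries. The log2 fold change was 0.50 ± 0.16, with a 95% interval of 0.17 to 0.83 and an adjusted p of 0.079 in limma and 0.11 in edgeR. The adjusted p was 0.020 without WT replicate 4, 0.023 without Nrf2Act-hep replicate 9, 0.036 with no filter on low values and 0.018 on the deposited scale, and over all settings it ran from 0.015 in M libraries alone to 0.85 in F libraries alone. Psmd9 had 1059 reads in all. Its span in the GENCODE models, chr5:123169413-123250131, overlaps Hpd on the opposite strand, a gene of tyrosine breakdown with 13109 reads. The RefSeq start used for the Psmd9 promoter lies inside that span, so the 2 models differ. Whether Hpd overlaps the RefSeq gene was not examined. Unlike Emc9 at Psme1, Hpd does not reach the annotated 3′ end of Psmd9. Hpd stood at 579.4 ± 149 CPM in Nrf2Act-hep and 706 ± 188 CPM in WT (SD, n = 5 each; log2 fold change -0.28, limma, adjusted p = 0.56), and its part in the Psmd9 counts was not tested.

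Psmd10, whose protein is also called gankyrin, measured 20.01, 15.7, 19.6, 18.2 and 19.3 CPM in Nrf2Act-hep, against 8.11, 10.04, 17.8, 22.6 and 14.7 CPM in WT. The Nrf2Act-hep values were close together and lay inside the wide WT range, in which both M libraries were lowest. The log2 fold change was 0.50 ± 0.20 (limma, adjusted p = 0.20). Psmd5 measured 11.1, 24.9, 20.05, 20.5 and 20.9 CPM in Nrf2Act-hep, against 17.6, 13.4, 10.2, 13.4 and 9.80 CPM in WT. All Nrf2Act-hep libraries but replicate 6 stood above the highest WT library, and the log2 fold change was 0.53 ± 0.22 (limma, adjusted p = 0.21). Without Nrf2Act-hep replicate 6 the log2 fold change of Psmd5 was 0.70 and the gene passed (limma, adjusted p = 0.037), while over the other settings its adjusted p reached 0.81, in M libraries alone.

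The remaining assembly factors act on the core. Psmg3, which encodes a chaperone of the alpha ring, measured 13.2, 14.5, 18.2, 13.1 and 14.0 CPM in Nrf2Act-hep, against 14.9, 10.9, 8.28, 8.71 and 8.46 CPM in WT. WT replicate 1 was the only WT library within the Nrf2Act-hep range, and the log2 fold change was 0.43 ± 0.19 (limma, adjusted p = 0.26). Its partner Psmg4 stood at 16.3 ± 6.16 CPM in Nrf2Act-hep and 17.2 ± 2.41 CPM in WT. Psmg1 and Psmg2, which form another alpha ring chaperone, stood at 11.2 ± 3.22 and 8.67 ± 1.19 CPM in Nrf2Act-hep, against 8.35 ± 1.76 and 6.57 ± 1.81 CPM in WT (SD, n = 5 each). Pomp, the maturation factor of the beta ring and the assembly factor with the highest level, measured 173, 188, 275, 168 and 204 CPM in Nrf2Act-hep, against 182, 236, 143, 236 and 153 CPM in WT. Its groups overlapped throughout (log2 fold change 0.051 ± 0.16, limma, adjusted p = 0.92). Pomp accounted for most of the summed level of the assembly factors, 347.9 ± 51.2 CPM in Nrf2Act-hep and 301.6 ± 50.6 CPM in WT (SD, n = 5 each).

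**Figure D4:**
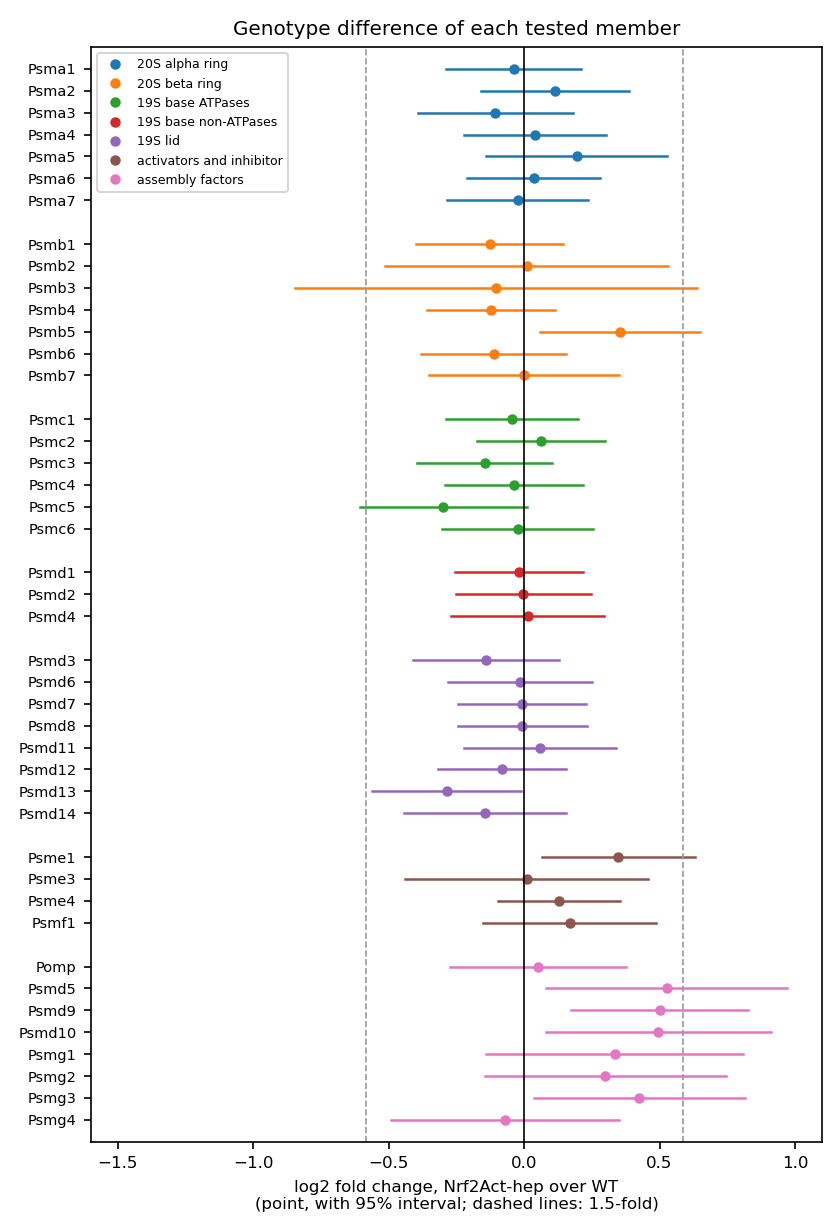
Log2 fold change of Nrf2Act-hep over WT for each tested member with its 95% interval, coloured by subcomplex, with dashed lines at 1.5-fold in either direction. Most structural subunits lie near 0, and Psmd5, Psmd9 and Psmd10 among the assembly factors reach 0.50 to 0.53, with none past the threshold after adjustment.

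The genotype difference was also compared between M and F libraries. Limma called 0 of the 43 members for the interaction of genotype and letter, against 0.0248% of all genes, and edgeR called 0 as well. At an unadjusted p under 0.05 there were 4 members in limma and 3 in edgeR, with 7.13% of all genes at that level in limma. The 4 members, with their F minus M difference on the log2 scale, were Psmd10 (-0.90), Psmd9 (-0.64), Psme3 (-0.85) and Psmg4 (1.05), with adjusted p of 0.47 to 0.69 in limma. Psmd9 passed in the M libraries alone (log2 fold change 0.82, limma, adjusted p = 0.015) and not in the F libraries alone (0.18, adjusted p = 0.85). Psmd10 likewise passed in M alone (0.95, limma, adjusted p = 0.048) and not in F alone (0.042, adjusted p = 0.98). Hpd had the same sign of interaction as Psmd9 (-0.98, limma, adjusted p = 0.44). With 2 libraries in 1 arm of each letter, these values rest on few samples. Between M and F libraries, with genotype as a term, limma called 0 members against 1.16% of all genes, and Psma1 (M minus F, 0.27) and Psmd10 (-0.48) had an unadjusted p under 0.05, where 10.2% of all genes did.

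**Figure D5:**
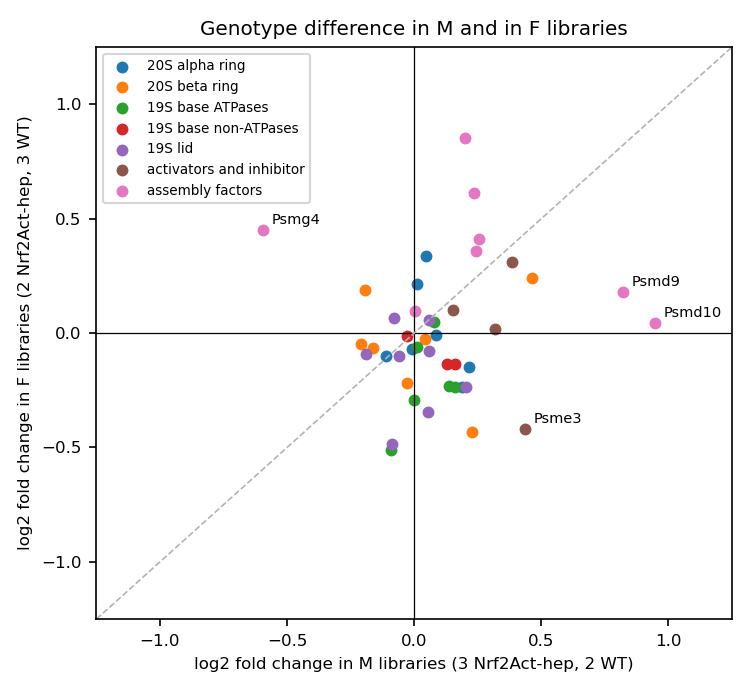
Log2 fold change of Nrf2Act-hep over WT in the M libraries (horizontal axis, 3 Nrf2Act-hep and 2 WT) and in the F libraries (vertical axis, 2 Nrf2Act-hep and 3 WT) for the 43 tested members, coloured by subcomplex, with a dashed line where both are equal. The 4 named genes had an unadjusted p under 0.05 for the interaction and none passed after adjustment.

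Genes whose products work with the proteasome were measured from lists. The list of proteasome partners also named Adrm1 and Sem1, genes of cap subunits that the naming rule does not pick. Among 10 tested genes of this list limma called 0 and edgeR 0. There was 1 at an unadjusted p under 0.05 in limma and in edgeR, and the median log2 fold change was 0.11. Txnl1, a thioredoxin-like protein bound to the cap, stood at 118 ± 8.38 CPM in Nrf2Act-hep and 104 ± 4.45 CPM in WT, and Ecpas, the gene of a proteasome adaptor, at 51.5 ± 4.64 CPM in Nrf2Act-hep and 41.1 ± 5.90 CPM in WT (SD, n = 5 each). Of the interferon-inducible subunits left out by the rule, Psmb8 stood at 13.6 ± 2.21 CPM in Nrf2Act-hep and 8.59 ± 2.42 CPM in WT (log2 fold change 0.62, limma, adjusted p = 0.14), and Psmb10 at 6.565 ± 1.497 CPM in Nrf2Act-hep and 7.14 ± 2.91 CPM in WT. Limma and edgeR called 0 of these 2, with 1 at an unadjusted p under 0.05 in each, and Psmb9 did not pass the filter. Of 17 tested interferon response genes, 13 had a log2 fold change below 0, with a median of -0.31 against 0.0051 over all genes. Limma gave 1 higher and 5 lower at an unadjusted p under 0.05, where 16.2% of all genes had such a p in either direction. After adjustment limma and edgeR each called 1 higher and 1 lower. Over all genes limma called 2.79% higher and 1.86% lower. H2-D1 stood at 269 ± 36.0 CPM in Nrf2Act-hep and 191 ± 20.8 CPM in WT (limma, adjusted p = 0.023), and H2-K1 at 287 ± 35.3 CPM in Nrf2Act-hep and 519.6 ± 61.2 CPM in WT (log2 fold change -0.87 ± 0.13, limma). Both are class I histocompatibility genes whose similar sequences may share reads, and the call of H2-D1 was lost without any 1 of Nrf2Act-hep replicates 7, 9 and 10 or WT replicates 2 and 4.

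The pathway that controls subunit transcription was measured as well. Nfe2l1, named here for its role outside the naming rule, stood at 41.9 ± 3.41 CPM in Nrf2Act-hep and 37.9 ± 3.89 CPM in WT (SD, n = 5 each; log2 fold change 0.14, limma, adjusted p = 0.65). Limma and edgeR called 0 of 9 tested genes from a list of NRF1, its processing, its small Maf partners and Bach1. At an unadjusted p under 0.05 there were 2 in each, both higher in limma, where 16.2% of all genes had such a p. Log2 fold changes of the list were above 0 for 8 and below 0 for 1, with a median of 0.26 and a highest value of 0.71. Vcp, the gene of the p97 ATPase, stood at 211 ± 13.9 CPM in Nrf2Act-hep and 208 ± 36.4 CPM in WT, and Ddi2, the gene of the protease that cleaves NRF1, at 178 ± 13.1 CPM in Nrf2Act-hep and 213 ± 34.0 CPM in WT (SD, n = 5 each).

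Upstream of the proteasome, 2 of 14 tested genes of ubiquitin shuttles and p97 cofactors rose and 0 fell in limma, and edgeR called the same numbers. Over all tested genes limma called 2.79% higher and 1.86% lower. Ubqln2, which encodes a shuttle that carries ubiquitinated proteins to the proteasome, stood at 26.8 ± 4.62 CPM in Nrf2Act-hep and 16.3 ± 3.28 CPM in WT (SD, n = 5 each; log2 fold change 0.70 ± 0.18, limma, adjusted p = 0.021). Ubxn4, the gene of a p97 partner in the membrane of the endoplasmic reticulum, stood at 205 ± 17.8 CPM in Nrf2Act-hep and 148 ± 17.1 CPM in WT (log2 fold change 0.45 ± 0.12, limma, adjusted p = 0.025). The list had 0 calls without Nrf2Act-hep replicate 7 or WT replicate 1 and in M or F libraries alone, and 1 call without any 1 of Nrf2Act-hep replicates 8, 9 and 10 or WT replicates 2, 3 and 5.

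A list of other deubiquitinases had 0 of 10 called by limma and edgeR and 0 at an unadjusted p under 0.05, with a median log2 fold change of 0.020. Usp7 stood at 84.2 ± 8.80 CPM in Nrf2Act-hep and 82.8 ± 9.56 CPM in WT, and Usp9x at 65.5 ± 8.57 CPM in Nrf2Act-hep and 57.5 ± 11.3 CPM in WT (SD, n = 5 each).

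Among cytosolic chaperones 1 of 16 tested genes rose in limma and 0 in edgeR, against 2.79% of all genes called higher in limma. At an unadjusted p under 0.05 there were 5 in each, all 5 higher in limma, where 16.2% of all genes had such a p. Log2 fold changes were above 0 for 14 and below 0 for 2, with a median of 0.15, against 0.0051 over all genes. The heat shock gene Hspa1b measured 5.53, 9.25, 10.9, 6.05 and 33.2 CPM in Nrf2Act-hep, against 2.03, 3.35, 2.55, 1.16 and 6.68 CPM in WT (limma, adjusted p = 0.040). Replicate 10 was far above the other Nrf2Act-hep libraries, and the call was lost without any 1 of Nrf2Act-hep replicates 7, 8 and 10 or WT replicates 1 to 4, with adjusted p from 0.0050 to 0.14 over the fits with 1 library left out. Hsp90ab1 stood at 957 ± 117 CPM in Nrf2Act-hep and 1070 ± 72.1 CPM in WT, and Dnaja1 at 111 ± 15.4 CPM in Nrf2Act-hep and 99.9 ± 11.7 CPM in WT (SD, n = 5 each). An autophagy list held receptor genes together with Gabarapl1 and Map1lc3b, which do not encode receptors. Limma and edgeR called 0 of its 7 genes. At an unadjusted p under 0.05 there were 2 in each, both higher in limma, where 16.2% of all genes had such a p. Log2 fold changes of the list were above 0 for 6 and below 0 for 1, with a median of 0.20. Sqstm1, the gene of the receptor p62, stood at 292 ± 35.0 CPM in Nrf2Act-hep and 235 ± 35.1 CPM in WT, and Tax1bp1 at 295 ± 23.7 CPM in Nrf2Act-hep and 309 ± 9.82 CPM in WT (SD, n = 5 each).

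In bulk liver, fewer cells of a type and less RNA per cell cannot be told apart. The lower summed hepatocyte markers in Nrf2Act-hep moved with genotype. Of 10 markers, 1 was called lower by limma and 2 by edgeR, and 0 were called higher by either. Over all tested genes limma called 1.86% lower. The sum leans on the most abundant marker, whose mean was 25544 CPM. Log2 fold changes of the list were mixed, with 7 below 0, 3 above 0 and a median of -0.098. On the deposited scale 7 lay above 0, with a median of 0.032. Summed markers of other liver cells overlapped between the groups. Those of Kupffer cells and macrophages were 236 to 355 CPM in Nrf2Act-hep and 299.6 to 367 CPM in WT. Endothelium gave 419 to 509 CPM in Nrf2Act-hep and 423 to 494 CPM in WT, and stellate cells 359.5 to 488 CPM in Nrf2Act-hep and 413 to 543 CPM in WT. Cholangiocytes gave 27.9 to 61.1 CPM in Nrf2Act-hep and 32.5 to 71.97 CPM in WT, and lymphoid cells 13.3 to 25.1 CPM in Nrf2Act-hep and 10.2 to 25.8 CPM in WT. From these lists limma and edgeR called 0 genes, with 4 at an unadjusted p under 0.05 in each, and no measured gene of them was at 0 in all libraries. Their part in the proteasome values was not tested.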

How the data were processed

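Liver mRNA was measured by 3′ tag sequencing (QuantSeq FWD kit, single reads) in 10 libraries. The authors deposited 1 table of CPM values, on GRCm38 per the submitters' processing notes. Aligner, counter, annotation release and use of strand were not given in the sources used here. All values (100%) were whole multiples of the smallest value of their column within 0.01 read, so reads were recovered from the deposited CPM. Intervals and floors from reads cover counting error only.

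Symbols came from GENCODE gene models on GRCm38. Genes were kept with at least 10 reads at the median depth (4.50 CPM) in at least 5 libraries and 15 reads in all. Log2(TMM-scaled CPM + 1), a scale that understates changes of low genes, was tested with limma 3.58.1 (variance trend, robust moderation; R 4.3.3, TMM from edgeR 4.0.16), all 10 libraries in 1 fit with the letter as a term. Intervals are at 95%. Alternatives were edgeR's quasi-likelihood test with TMM or RLE, DESeq2 1.42.0, limma-voom, other pseudocounts (0.5 and 4) and filters, the deposited scale, no letter term, each letter alone and each library left out. The code was tested on simulated reads.

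The members and lists were chosen with earlier results of these data known. Members named with a fold change are the one with the highest mean and the one with the largest change in each subcomplex. Psmb6, and members with an unadjusted p under 0.05, were added after their values were seen. Related lists name genes past the threshold, or the 2 with the highest mean. Psmc3ip (3 reads) and Psme2b (8 reads) carry letters after the number and were not counted as members. No library was left out.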

Additional observations from a re-analysis of the deposited data

Results flagged for a closer look

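In each group of 5 libraries the gap of the highest or lowest library to its neighbour, as a share of the range, was compared with Dixon's critical value of 0.71. Of 104 groups of members and summed subcomplexes 6 exceeded it, and chance alone gives about 1 in 20. The alpha subunit gene Psma2 was at 128.0 CPM in WT replicate 2, against 78.4 to 92.6 CPM in the other WT libraries. The beta subunit gene Psmb2 was at 26.7 CPM in WT replicate 5, against 15.3 to 18.4 CPM. The ATPase gene Psmc1 was at 186.6 CPM in Nrf2Act-hep replicate 9, against 220.1 to 223.3 CPM in the other Nrf2Act-hep libraries. The inhibitor gene Psmf1 was at 30.2 CPM in Nrf2Act-hep replicate 7, against 25.5 to 25.9 CPM. The assembly factor gene Psmg3 was at 18.2 CPM in Nrf2Act-hep replicate 8, against 13.1 to 14.5 CPM. The summed 19S base non-ATPases were lowest in Nrf2Act-hep replicate 9, at 451.2 CPM, against 548.0 to 585.3 CPM. None of these genes was called between genotypes.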

How the results depend on the processing

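No paired analysis was possible because the replicate numbers run from 1 to 10 without repeats. On the deposited scale 384 genes were called higher and 80 lower, against 225 and 150 with TMM. Lower calls were 94 in M libraries alone, and F libraries alone gave 86 higher and 50 lower. Leaving out 1 library gave 150 to 209 higher and 84 (without WT replicate 1) to 154 lower, with 98 without Nrf2Act-hep replicate 10. Members called higher were 2 on the deposited scale, 1 with no filter, 2 in M libraries alone and 0 to 1 with 1 library left out. Assembly factors made up 1, 1, 2 and 0 to 1 of these, and the activators 1 on the deposited scale. The NRF1 list had 1 call on the deposited scale, 1 with no filter and 0 to 1 with 1 library left out. The shuttle list had 0 in M alone, 0 in F alone and 0 to 2 with 1 library left out. The chaperone list had 4 on the deposited scale, 2 with no filter, 0 with edgeR (TMM or RLE), limma-voom, a pseudocount of 4, no letter term or F alone, and 0 to 3 with 1 library left out. The autophagy list had 2 on the deposited scale, and the interferon list 0 in F alone and 1 to 2 with 1 library left out. Members called lower stayed at 0.

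Of the 43 tested members, 18 changed sign on the deposited scale, 10 with no filter, 10 in M alone, 8 in F alone, 6 with no letter term and 3 with edgeR. Among the 17 members followed singly, those that changed sign were not past the threshold. Of these 17, the log2 values on the deposited scale were Psma7 0.11, Psmb1 0.0031, Psmb6 0.017, Psmc1 0.084, Psmd1 0.11 and Psmd7 0.12. With no filter they were Psma7 0.021, Psmd1 0.025 and Psmd7 0.034, and with the filter of 1 CPM Psmd7 0.00059. In M libraries alone they were Psma7 0.19, Psmc1 0.14 and Psmd7 0.059. With 1 library left out the ranges were -0.041 to 0.15 for Pomp, -0.13 to 0.038 for Psma7, -0.12 to 0.043 for Psmc1, -0.072 to 0.038 for Psmd1 and -0.048 to 0.030 for Psmd7. Apart from the deposited scale and the filter, whose scaling or genes differ by construction, the cause was not tested. The core was in 5 members in the 250 bases before the start alone.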

Other observations

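The 10 genes outside the set whose levels most resembled the mean standardised level of the 43 tested members over the 10 libraries were Ndufaf2, Bok, Polr3c, Pdcd5, Tbca, Eif2s2, 1110038F14Rik, Nufip1, Xpo4 and Rbm7. They were picked from all tested genes for this resemblance, and all libraries share their depth and scaling with the members, so the list is a description. Their Pearson correlation with the mean was 0.82 to 0.93. The 43 members themselves correlated with it from -0.60 to 0.86, with a median of 0.34, so the mean is not a pattern that all members share.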
